A study of Mus musculus with 45 samples.

Results

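Mouse embryonic stem cells (mESCs) that received retinoic acid (RA) and BMP4 together were compared, at day 9, with mESCs that received RA first and BMP4 afterwards. The libraries were chosen by their labels, M9 and B9, and number 6 of the 45 in the series, 3 in each group. The series sampled a 9-day course of adherent mESC cultures toward spinal sensory interneurons by bulk RNA sequencing. All groups passed through neuromesodermal progenitors made with basic FGF and the WNT activator CHIR. M9 cultures then had 100 nM RA with 10 ng/ml BMP4 for 48 h from day 3 to day 5. B9 cultures had the same RA dose from day 3, but 10 ng/ml BMP4 was added only for the last 24 h, from day 4 to day 5. R9 cultures, used here as an added point, had 100 nM RA and no BMP4. M9 and B9 thus differ in how long BMP4 was given as well as in when it began, and these cannot be told apart. The labels name no mESC line and call the combined condition by another letter in the protocol than in the sample titles, which were followed here.

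In the embryo, BMPs from the roof plate and its overlying ectoderm pattern the dorsal spinal cord, where progenitors give rise to the interneuron classes dI1 to dI6. RA made by the somites promotes neural differentiation of caudal progenitors, whereas BMP signalling in cells not yet committed to a neural fate favours mesoderm and surface ectoderm. Neuromesodermal progenitors can give rise to both spinal cord and mesoderm.

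Expression is given as the authors' normalised level per gene and library, whose unit the table does not state. Changes are log2 fold changes of level + 1, M9 over B9, with their standard error (SE) from a limma fit of all 45 libraries, and group means are given with the SD over 3 libraries. A gene was called where its Benjamini-Hochberg adjusted p over the 11220 listed genes was under 0.05. The listed levels summed to between 13959544 and 15228260 in M9 libraries and between 12245725 and 13302950 in B9 libraries, and the read depth of each library is unknown. Correlations of log2 levels were 0.989 to 0.99 within M9, 0.981 to 0.994 within B9 and 0.921 to 0.955 between the groups. B9 replicate 1 stood apart from the other B9 libraries, with higher summed levels of the pan-neural progenitor list (27119, against 18805 and 20270 in the other B9 libraries) and lower summed levels of the pluripotency list (19830, against 23821 and 30543). Without it 5400 genes were called in M9 against B9, as against 5777 with it.

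The comparison asked how the regimens of BMP4 differed in effect by the end of the course. Of the 11220 listed genes, 5777 were called (51.5%), of which 3114 were higher in M9 (27.8%) and 2663 lower (23.7%). At least a 2-fold change was seen in 854 of the higher and 1366 of the lower genes. With quantile normalisation these counts were 1161 and 1131. The authors' deposited test, at a rate under 0.05, called 2404 genes higher and 2535 lower, so which direction held more genes depended on the method. The median change over all listed genes was 0.05 on the log2 scale. These shares are not shares of the transcriptome. A gene entered the table only where the authors' false discovery rate fell under 0.1 in any of 12 comparisons, of which B9 against M9 was 1, and over all 16014 genes they tested the authors' deposited table has a rate under 0.05 in this contrast for 4939 (30.8%). The ranges of the groups did not overlap for 3723 genes with M9 above B9 (33.2%) and 3386 with M9 below B9 (30.2%).

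**Figure D1:**
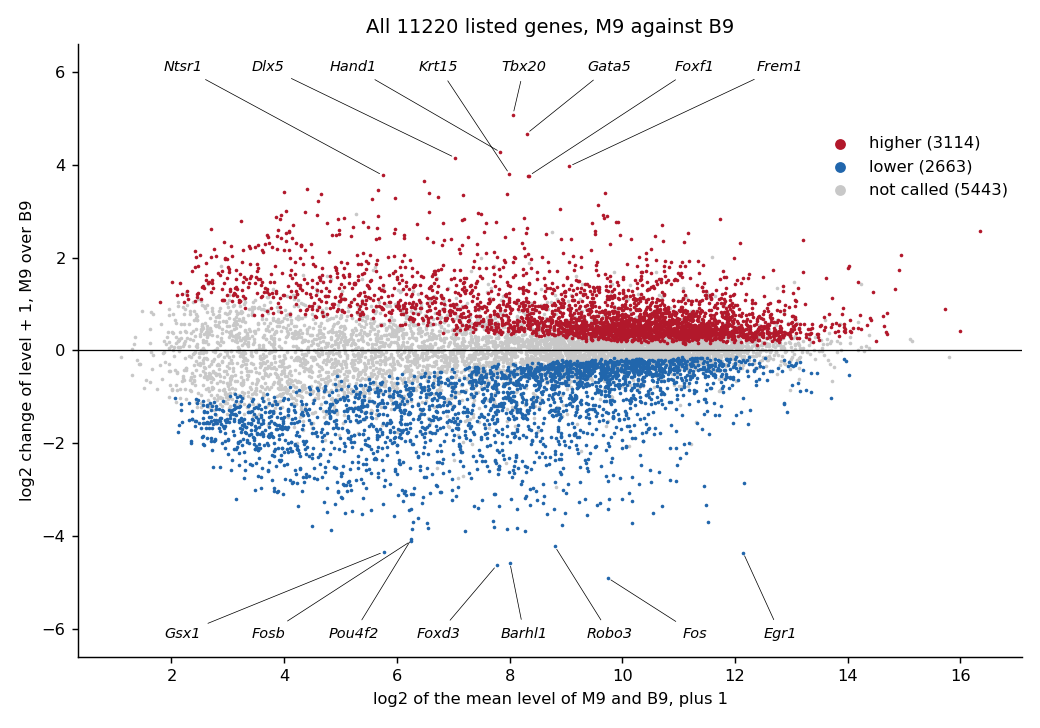
Log2 change of each listed gene in M9 over B9 against the log2 of the mean level of both groups. Red points are the 3114 genes called higher in M9, blue points the 2663 called lower and grey points the rest, and the 8 largest changes in each direction are named.

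The largest increases were of regulators of lateral mesoderm and heart. Tbx20 (mm10 chromosome 9, 24718138 to 24774303, minus strand, protein-coding), a T-box factor of the cardiac lineage, stood at 414, 762 and 377 in M9 and at 17.99, 14.98 and 9.20 in B9. It was 5.08 higher in M9 (SE 0.63, adjusted p = 1.7e-07), and the RA-only mean of 13.4 lay within the B9 range. Gata5, a zinc-finger factor of heart and endoderm (chromosome 2, 180325133 to 180334699, minus strand), stood at 434, 814 and 572 in M9 and at 36.5, 23.2 and 12.5 in B9. Hand1, a basic helix-loop-helix factor of lateral mesoderm (chromosome 11, 57828705 to 57832818, minus strand), stood at 500, 473 and 326 in M9 and at 33.5, 16.7 and 16.7 in B9. Every M9 library was above every B9 library in these 3 genes. The next largest were Dlx5 (4.15), a homeobox factor of surface ectoderm and limb, Frem1 (3.97), an extracellular matrix protein of epithelial basement membranes, and Krt15 (3.80), a keratin of basal epidermis. Ntsr1 (3.77), the neurotensin receptor, Foxf1 (3.77), a forkhead factor of splanchnic mesoderm, Arg1 (3.76), arginase, and Rgs5 (3.64), a pericyte signalling regulator, followed. The other genes among the 15 largest increases were Oprk1, Prom2, Fendrr, Meox1 and Iigp1, at 3.38 to 3.48.

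Of 21 factors of lateral mesoderm and heart in the table, 14 were higher in M9 and 0 lower (median change 1.69), against 27.8% higher over all genes. At an unadjusted p under 0.05 the same limma test gave 16 higher and 0 lower, and the authors' deposited test 14 and 0. Hand2, Foxf1, Tbx5 and Prrx2 were among those that were at least 4-fold higher. Hand2 averaged 1476 ± 607 in M9 and 219.6 ± 165 in B9 (log2 change 2.90, SE 0.80, adjusted p = 0.0033), and only 19.7 in R9. Gata4 averaged 1986 ± 620 in M9 and 604 ± 107 in B9, a change of 1.68 whose adjusted p of 0.017 became 0.073 without M9 replicate 2 and 0.052 without B9 replicate 2. Gata6 averaged 2844 ± 929 in M9 and 811 ± 250 in B9, and its adjusted p of 0.014 became 0.065 without M9 replicate 2 and 0.057 without B9 replicate 3. Contractile genes of the heart had no common direction. Tnnt2, cardiac troponin T, had levels of 8.82, 20.1 and 26.7 in M9 and 22.3, 13.5 and 14.7 in B9, groups that overlap (log2 change 0.04, adjusted p = 0.96).

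Of 23 cardiac and smooth muscle genes, 7 were higher and 5 lower, shares near the 27.8% and 23.7% of all genes. The higher ones were Myocd (2.03), a coactivator that drives smooth muscle genes, Tnni1, Tpm2, Myh11, Des, Tpm1 and Smtn. The lower ones were the cardiac myosins Myh7 (-2.34), Myh6 (-1.74) and Myl4 (-1.47), the natriuretic peptide Nppb and the calcium channel Ryr2. Without M9 replicate 2 these counts were 4 higher and 2 lower, and Myh6 was no longer called (adjusted p = 0.063). Myl4 lost its call without M9 replicate 1 (adjusted p = 0.11), M9 replicate 2 (0.11) or B9 replicate 3 (0.14), and Myh11 without M9 replicate 2 (0.13), M9 replicate 3 (0.061), B9 replicate 1 (0.13), B9 replicate 2 (0.055) or B9 replicate 3 (0.056). Without M9 replicate 1 or B9 replicate 3 the lower count was 3. Acta2, smooth muscle actin, was at 860, 2168 and 1633 in M9 and at 1450, 1211 and 1118 in B9, with M9 on both sides of B9.

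Skeletal muscle genes were low in both groups and lower in M9. Of 17 in the table, 9 were lower and 0 higher (median -1.17), against 23.7% and 27.8% of all genes. At an unadjusted p under 0.05 the limma test gave 10 lower and 0 higher, and the authors' deposited test gave 9 and 0. Myh8, perinatal myosin, was at 13.3, 16.5 and 49.2 in M9 and at 233, 132 and 170 in B9 (log2 change -2.91, SE 0.96, adjusted p = 0.012). Myh3, embryonic myosin (-2.67), and Mylpf, a fast light chain (-2.40), moved likewise, and the RA-only means of all 9 were nearer to B9 than to M9.

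Of 19 paraxial mesoderm genes, 6 were higher and 5 lower (3 lower without M9 replicate 2), shares near the 27.8% and 23.7% of all genes. Higher were Meox1 (3.40), a somite homeobox factor, Foxc2 (3.12) and Foxc1 (2.57), forkhead factors of somite and mesenchyme, Nkx3-2 (2.55), a sclerotome factor, Scx (1.63), a tendon factor, and Tbx18 (1.54). Meox1 was at 1636, 1847 and 985 in M9 and at 268, 116 and 80.3 in B9, which do not overlap. Lower were Dll3 and Ripply1 of the segmentation clock, Tcf15, Pax9 and Lbx1. Mesenchyme and matrix genes were higher for 12 of 30 and lower for 0 (median 0.54), against 27.8% and 23.7% of all genes. The other 18 were not called. The limma test gave 13 and 0 at an unadjusted p under 0.05, and the authors' deposited test 13 and 0. With array weights, or with the compared libraries fitted alone, 2 were lower. The higher genes included Eln, elastin (2.01), Pdgfra (1.93), Twist2 (1.80), Snai2 (1.71) and the proteoglycan Vcan (1.56). The fibrillar collagens were not among them. Col3a1 was at 2636, 8572 and 7993 in M9 and at 10240, 3453 and 2902 in B9, ranges that overlap.

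Mesothelial genes mark the lining of the body cavities. Wt1, a zinc-finger factor of that lining, averaged 2141 ± 731 in M9, 1237 ± 475 in B9 and 138 ± 41.6 in R9, and its change of 0.80 between M9 and B9 was not called (adjusted p = 0.14). Msln, which encodes mesothelin, was at 2.64, 4.53 and 5.02 in M9 and at 26.8, 37.8 and 39.0 in B9, with an R9 mean of 5.87, and was lower in M9 (log2 change -2.83, SE 0.73, adjusted p = 0.0021). Of 17 mesothelial genes 4 were higher and 2 lower, against 27.8% and 23.7% of all genes. Without M9 replicate 2 or B9 replicate 3 only 2 were higher. Endothelial genes showed no common direction either, with 3 of 22 higher and 4 lower, against 27.8% and 23.7% of all genes. Without M9 replicate 2 or B9 replicate 3, 2 were lower. Pecam1, which mESCs also make, was lower (-1.84; adjusted p = 0.062 without M9 replicate 2), while Cdh5 and Kdr, which define endothelium, were not called. Globin levels were near 0 at day 9, where Hbb-y had at most 1.28 in M9 and 2.54 in B9.

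Surface ectoderm genes were higher in M9 for 13 of 28 and lower for 1 (median 0.64), against 27.8% and 23.7% of all genes. By the authors' deposited test 12 were higher and 3 lower. Trp63, the p63 factor of stratified epithelia (chromosome 16, 25683763 to 25892102, plus strand), was at 91.3, 146 and 99.7 in M9 and at 16.6, 7.32 and 9.18 in B9 (log2 change 3.28, SE 0.48, adjusted p = 2.5e-06). Krt15 was at 515, 573 and 339 in M9 and at 37.6, 34.9 and 26.0 in B9 (log2 change 3.80, SE 0.58, adjusted p = 4.6e-06). Both genes had low R9 means, 12.5 for Trp63 and 9.17 for Krt15. Dlx3 (2.85), Krt5 (2.65), the splicing regulator Esrp1 (1.62) and the epithelial factors Grhl2 (1.40) and Grhl3 (1.13) were also higher. Krt8 was higher (0.79), but Krt18 (0.30, adjusted p = 0.34) and Epcam (0.37, adjusted p = 0.45) were not called. The ranges of Krt18 and Epcam overlapped. In the limma fit Tfap2c was the lower one (-0.94). Its call was lost without M9 replicate 2 (adjusted p = 0.075), B9 replicate 1 (0.053) or B9 replicate 3 (0.1). Endoderm genes had 2 lower and 0 higher of 13, against 23.7% and 27.8% of all genes. The limma test gave 3 lower and 0 higher at an unadjusted p under 0.05, and the authors' deposited test 2 and 0. The lower count was 1 without M9 replicate 1 or 3, and 0 without B9 replicate 1. With the compared libraries fitted alone, 2 were higher.

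Neuronal genes were lower in M9, and neural progenitor genes were lower in part. Sox2, a factor of neural progenitors and of pluripotent cells (chromosome 3, 34650405 to 34652461, plus strand), was at 1460, 738 and 1261 in M9 and at 7009, 8010 and 9101 in B9. Its change was -2.85 (SE 0.30, adjusted p = 1.3e-08), and R9, with a mean of 8919, was close to B9. Of 19 pan-neural progenitor genes, 8 were lower and 2 higher, against 23.7% and 27.8% of all genes, and 9 were not called. Rfx4 (-3.29), Pou3f2 (-2.84), Fabp7 (-2.62) and Sox21 (-2.27) were lower, and Irx3 (1.71) and Prom1 (0.73) were higher. Nes, a progenitor marker, was at 3169, 3939 and 3040 in M9 and at 5188, 2526 and 2989 in B9. It was not called (log2 change -0.015, adjusted p = 0.97). Sox1 was lower (-1.32, adjusted p = 0.049). This call was lost without M9 replicate 1 (adjusted p = 0.1) or 3 (0.15), or B9 replicate 1 (0.11), 2 (0.078) or 3 (0.082). Pax6, a homeobox factor of intermediate and dorsal progenitors, averaged 157 ± 16.1 in M9, 467 ± 232 in B9 and 947 in R9. The groups did not overlap in Pax6, but its adjusted p of 0.038 became 0.17 without B9 replicate 1, which held the highest B9 value (735), 0.071 without M9 replicate 1, 0.096 without M9 replicate 2 and 0.058 without M9 replicate 3. The count of 8 lower was 4 without B9 replicate 1, and 5 without M9 replicate 1 or 2. Irx3 and Prom1 were not called without B9 replicate 2 (adjusted p of 0.06 and 0.11), B9 replicate 3 (0.083 and 0.13) or M9 replicate 2 (0.06 and 0.11), and Prom1 also not without M9 replicate 1 (0.075) or 3 (0.086).

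**Figure D2:**
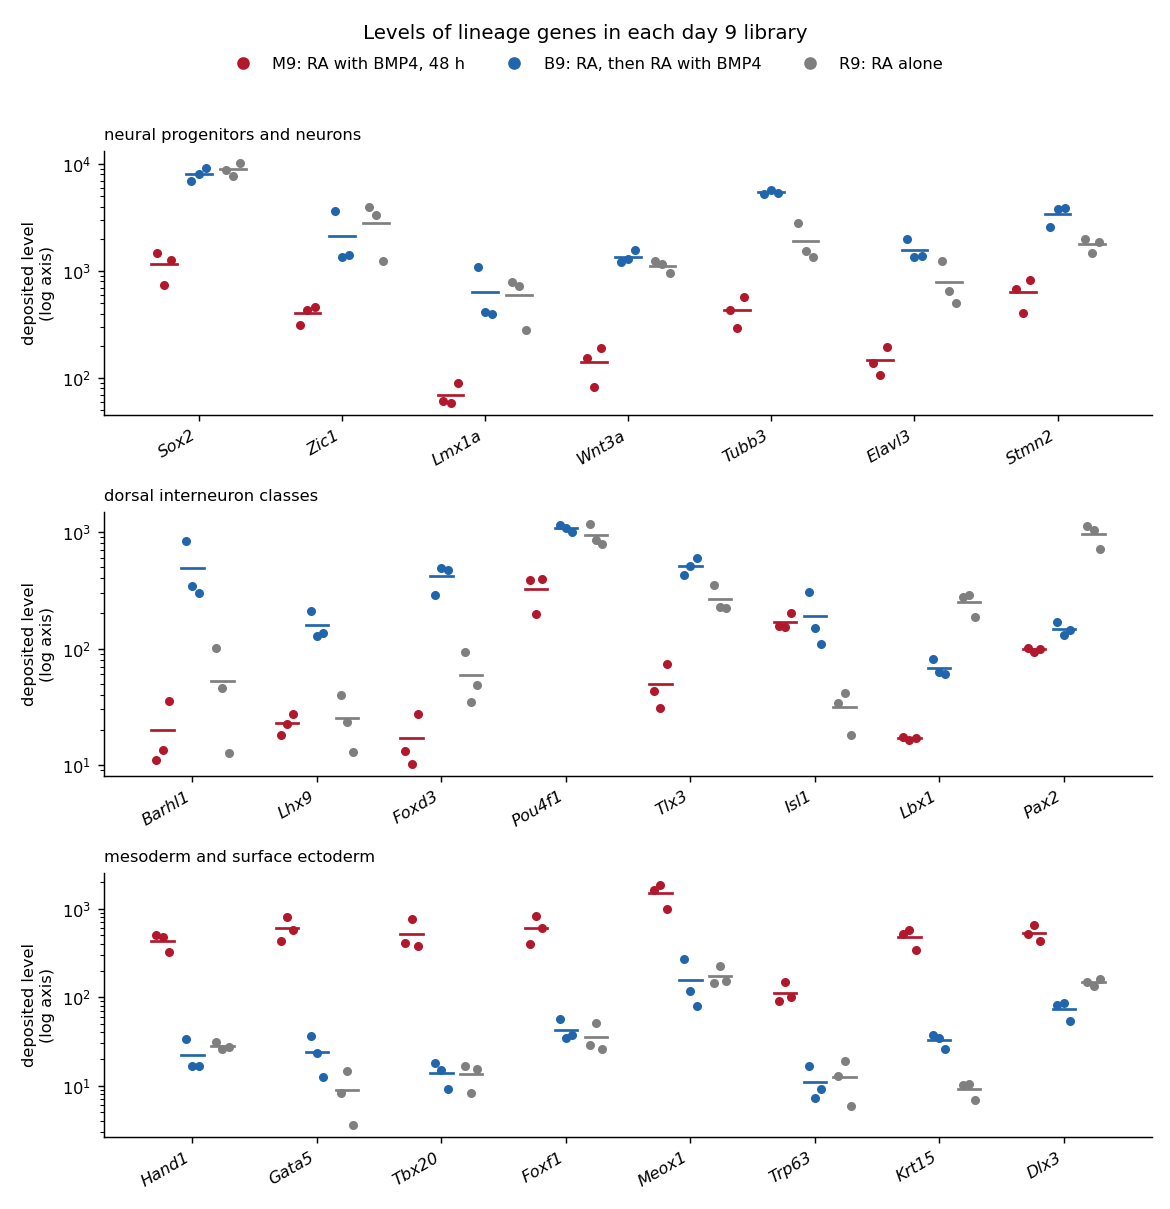
Deposited level of lineage genes on a log axis, with 1 point per library and a line at the group mean, for M9 (red), B9 (blue) and R9 (grey). Sox2 is at 738 to 1460 in M9 and at 7009 to 9101 in B9, and Tbx20 at 377 to 762 in M9 and 9.20 to 17.99 in B9, whereas Isl1 and Pax2 lie close together in M9 and B9.

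Genes of dorsal progenitors and roof plate were lower for 16 of 24 and higher for 1 (median -2.41), against 23.7% lower over all genes. Lmx1a, a homeobox factor of the roof plate, was at 61.2, 58.3 and 89.8 in M9 and at 1097, 415 and 401 in B9 (log2 change -3.03, SE 0.88, adjusted p = 0.005). Gdf7, a roof plate BMP, was at 39.7, 35.2 and 49.8 in M9 and at 201, 144 and 177 in B9 (log2 change -2.04, SE 0.63, adjusted p = 0.0083). The roof plate signal Wnt3a was at 152, 83.1 and 189 in M9 and at 1219, 1303 and 1558 in B9 (log2 change -3.33, SE 0.56, adjusted p = 2.1e-05). In each of these 3 genes the groups did not overlap. Of the Zic factors, which restrain neural differentiation in the dorsal cord, Zic1 to Zic5 were lower by 2.26 to 3.30. Transcription factors of the successive dorsal domains were lower too, among them Atoh1 (-3.85) of dI1, Neurog1 (-2.56) of dI2, Olig3 (-2.57) of dI1 to dI3, Ptf1a (-1.77) of dI4 and Gsx1 (-4.34) of dI4 and dI5. Rspo3, a WNT potentiator, was the higher one (1.40), and its adjusted p was 0.078 without M9 replicate 2, 0.084 without M9 replicate 3, 0.084 without B9 replicate 2 and 0.07 without B9 replicate 3.

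Neuronal genes were lower in M9 for 22 of 29 and higher for 1 (median -2.20), against 23.7% and 27.8% of all genes. Tubb3, the neuronal tubulin (chromosome 8, 123411424 to 123422015, plus strand), was at 432, 292 and 577 in M9 and at 5293, 5700 and 5389 in B9. Its change was -3.70 (SE 0.85, adjusted p = 0.00067), with an R9 mean of 1899, below B9 and above M9. Syt4, a vesicle protein (-3.88), Myt1 (-3.80) and Insm1 (-3.76), zinc-finger factors of neuronal differentiation, Elavl3, an RNA-binding protein of early neurons (-3.42), and Mapt, tau (-3.20), had the largest changes. In bulk RNA, fewer neurons and less neuronal RNA per cell cannot be told apart. Cplx2, complexin 2, was the higher gene, at 1183, 1530 and 1433 in M9 and 1116, 475 and 459 in B9, and it lost its call without M9 replicate 2 (adjusted p = 0.085), M9 replicate 3 (0.064), B9 replicate 2 (0.12) or B9 replicate 3 (0.13). Of 30 synapse and ion channel genes 14 were lower and 2 higher, against 23.7% and 27.8% of all genes. The sodium channel Scn3a (-3.88), the vesicular glutamate transporter Slc17a6 (-3.07) and the NMDA receptor subunit Grin1 (-2.57) were lower, and the AMPA receptor subunits Gria3 (1.55) and Gria4 (0.93) higher.

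Markers of the dorsal interneuron classes that BMP signalling favours, dI1 to dI3, were lower in M9. Of 17 genes of these classes, 11 were lower and 0 higher (median -2.73), against 23.7% and 27.8% of all genes. These counts were the same at an unadjusted p under 0.05 and by the authors' deposited test. With array weights 1 was higher. Barhl1, a homeobox factor of dI1 (chromosome 2, 28907679 to 28916668, minus strand), was at 11.1, 13.5 and 35.5 in M9 and at 831, 345 and 298 in B9 (log2 change -4.57, SE 1.12, adjusted p = 0.0013). Foxd3, a forkhead factor of dI2, neural crest and pluripotent cells (chromosome 4, 99656299 to 99658622, plus strand), was at 13.1, 10.2 and 27.7 in M9 and at 290, 489 and 476 in B9 (log2 change -4.63, SE 0.84, adjusted p = 5e-05). Tlx3, a selector of glutamatergic dI3 and dI5 neurons, was at 43.6, 30.9 and 73.0 in M9 and at 425, 510 and 600 in B9 (log2 change -3.43, SE 0.75, adjusted p = 0.00042). No M9 library reached the lowest B9 library in any of the 3. R9 means were 53.2 for Barhl1, 59.3 for Foxd3 and 267 for Tlx3, between the groups. Robo3, the commissural axon receptor (-4.22), Pou4f2 (-4.06), Barhl2 (-3.82), Lhx9 (-2.73) and Pou4f1 (-1.80) were also lower. Isl1, the LIM factor that defines dI3, was not called, at 156, 152 and 202 in M9 and 307, 151 and 110 in B9 (log2 change -0.03, SE 0.77, adjusted p = 0.98). Lhx2 of dI1 was not called either, at 292, 565 and 327 in M9 and 405, 260 and 206 in B9.

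Genes of classes dI4 to dI6 had a geometric mean level of 49.8 in M9, 117 in B9 and 216 in R9. Of 22 genes 12 were lower and 0 higher (median -1.67), against 23.7% and 27.8% of all genes. These counts were also 12 and 0 at an unadjusted p under 0.05 and by the authors' deposited test. With array weights 3 were higher, and with quantile normalisation 1. All 12 lower genes had R9 nearer to B9 than to M9. Lbx1, the homeobox factor of these classes, was at 17.5, 16.4 and 16.9 in M9, 80.7, 62.6 and 60.9 in B9 and 277, 289 and 188 in R9, 3 ranges that do not overlap. Its change between M9 and B9 was -1.93 (SE 0.61, adjusted p = 0.0098). Lhx5 (-3.22), Slc6a5, the glycine transporter (-2.76), Prdm13 (-2.38), Pax8 (-2.23) and Gad1, a GABA-synthesising enzyme (-1.79), were lower. Lhx1 was at 807.6, 697.5 and 679.9 in M9 and at 839, 345.8 and 323.9 in B9. It was not called (log2 change 0.67, adjusted p = 0.47), but was called higher with array weights (1.06, adjusted p = 0.049). Lmx1b was not called either (-0.48, adjusted p = 0.35). Pax2, a factor of inhibitory dI4 and dI6 neurons, was at 102, 94.1 and 98.7 in M9, 170, 131 and 143 in B9 and 1128, 1045 and 710 in R9. The M9 and B9 ranges of Pax2 were separate, but its change of -0.58 (SE 0.55) was not called in the fit of all libraries (adjusted p = 0.39), and was called when the compared libraries were fitted alone (adjusted p = 0.026).

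Other neural derivatives moved in mixed ways. Of 20 neural crest and Schwann genes 5 were lower and 3 higher, a share near that of all genes (3 lower without M9 replicate 2). Sox10, which defines migrating crest and glia, was at 119, 83.9 and 168 in M9 and at 420, 193 and 193 in B9, and was not called in the fit of all libraries (adjusted p = 0.27), while the compared libraries alone gave 0.04. The higher ones were Ets1 (1.84), Snai2 (1.71) and Snai1 (1.41), which mesenchymal cells also use. Of 14 neuropeptide genes 6 were lower and 1 higher, against 23.7% and 27.8% of all genes. Pdyn, prodynorphin, was at 13.6, 4.05 and 21.6 in M9 and at 72.5, 134 and 204 in B9, against an R9 mean of 6.47. Adcyap1, the precursor of PACAP, was likewise at 9.57, 3.52 and 10.6 in M9 and at 92.5, 66.9 and 63.0 in B9, with R9 at 8.37. Both were thus well above the RA-only cultures in B9 and near them in M9. Of 16 noradrenergic neuron genes 4 were higher and 3 lower, against 27.8% and 23.7% of all genes, and Th, tyrosine hydroxylase, was lower (-2.16).

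Axon guidance genes changed in both directions, 10 higher and 7 lower of 36, shares near the 27.8% and 23.7% of all genes. Lower were Robo3 (-4.22), Dcc (-3.55), Nell2 (-1.96), Slit1 (-1.63), Ntn1 (-1.62), Nrp2 (-1.34) and Unc5a (-1.11). Unc5b, a netrin receptor that vessels use too, was at 7129, 8380 and 6211 in M9 and at 1471, 1550 and 1334 in B9 (log2 change 2.31, SE 0.39, adjusted p = 1.9e-05). Sema3a (1.98), Nrp1 (1.93), Efna5 (1.47), Sema6a (1.28) and Efna1 (1.21) were higher with it. With array weights, which give B9 replicate 1 a weight of 0.314, 18 were higher.

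**Figure D3:**
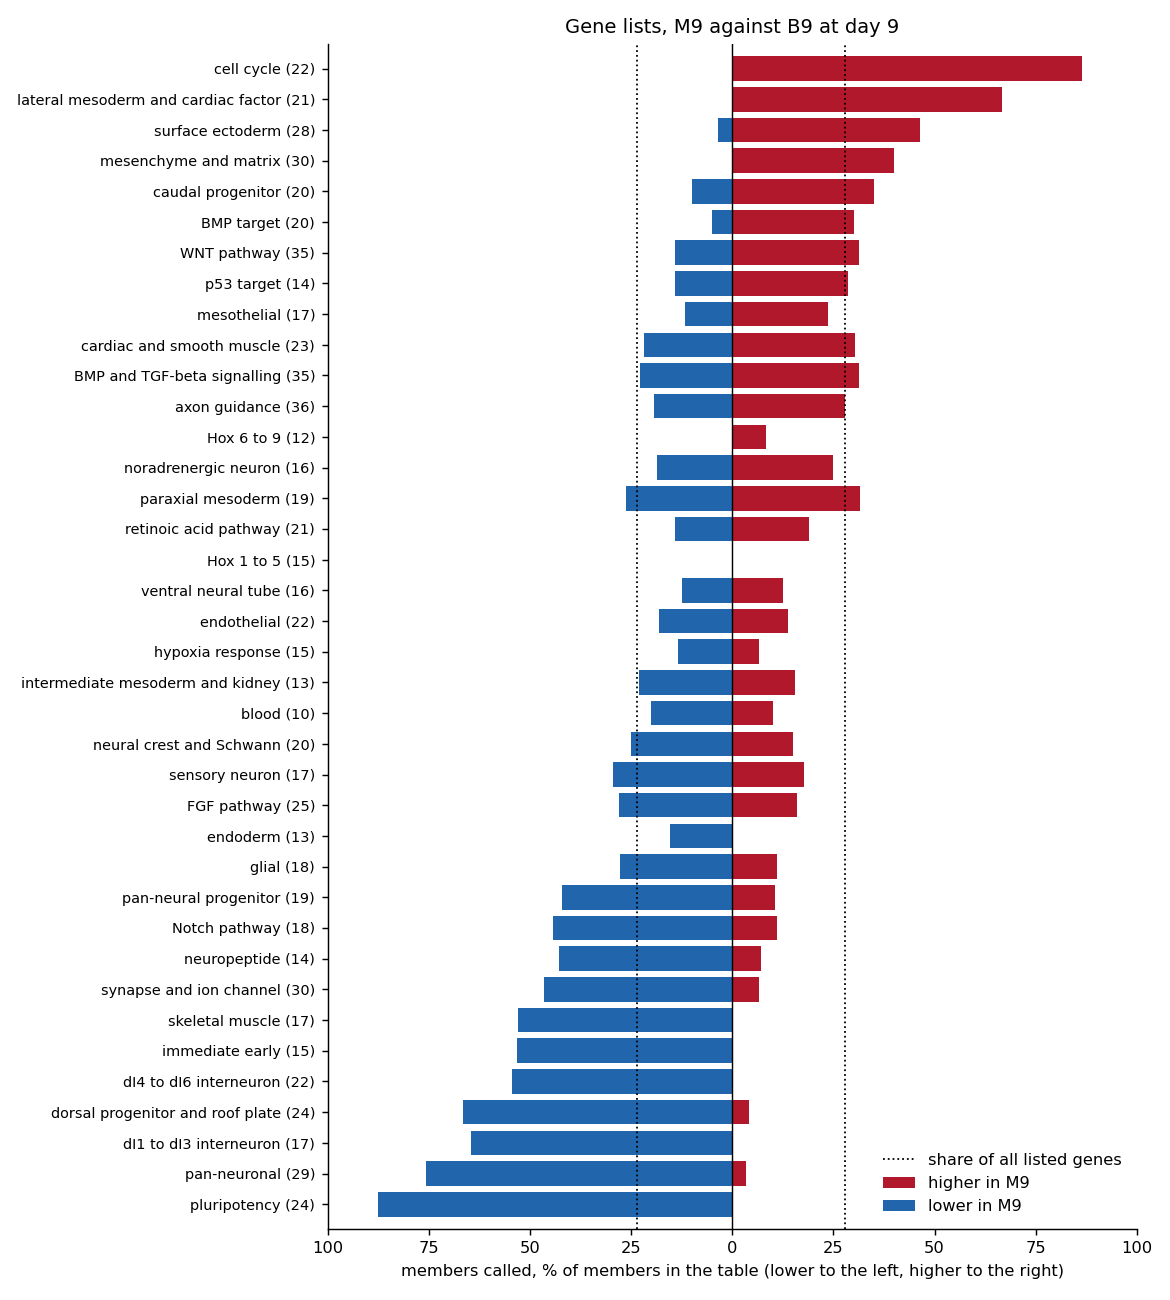
Share of each gene list's members that were called higher (red, to the right) or lower (blue, to the left) in M9 against B9, for lists with at least 10 members in the table (their number is in brackets). Dotted lines mark 27.8% higher and 23.7% lower, the shares over all listed genes; cell cycle (19 of 22 higher) and pluripotency (21 of 24 lower) lie farthest out.

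Signalling genes were examined by role. Of 35 BMP and TGF-beta ligands, antagonists and receptors, 11 were higher and 8 lower, shares near the 27.8% and 23.7% of all genes, and without M9 replicate 2 the higher count was 6. Among ligands, Bmp5 was higher (190 ± 58.5 in M9, 34.1 ± 30.2 in B9, log2 change 2.74, SE 0.56, adjusted p = 0.0002), as were Tgfb2 (1.67) and Gdf11 (1.30). Inhbb (-3.09) and Inhba (-2.03), subunits of activin, and Gdf7 (-2.04) and Bmp6 (-1.87) were lower. Among receptors, Tgfbr2 (1.25), Acvr1 (0.59) and Bmpr1a (0.56) were higher and Bmpr1b (-1.79) lower. Among antagonists, Sostdc1 (-3.12) and Chrd (-0.76) were lower and Twsg1 (1.08) and Fstl1 (1.13) higher. BMP4 was last given on day 5, 4 days before collection. Of 20 BMP target genes 6 were higher (4 to 8 when any 1 library was left out) and 1 lower (0 without M9 replicate 1, M9 replicate 2 or B9 replicate 1), a higher share near that of all genes. Bambi, a decoy receptor, was at 1546, 2496 and 2004 in M9 and at 548, 499 and 438 in B9 (log2 change 2.00, SE 0.46, adjusted p = 0.00068). Smad6, an inhibitory Smad (1.03), Hey1 (1.06) and Atoh8 (2.10) were also higher. Id1, the inhibitor of differentiation that BMP induces directly, was at 1763, 2329 and 2305 in M9 and at 1952, 1529 and 1452 in B9 and was not called (log2 change 0.38, adjusted p = 0.42).

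Of 35 WNT pathway genes, 11 were higher and 5 lower (3 lower without M9 replicate 1, M9 replicate 2, B9 replicate 1 or B9 replicate 3), against 27.8% and 23.7% of all genes. Among ligands, Wnt5b (1.83), Wnt2 (1.41), Wnt6 (1.23) and Wnt5a (1.11) were higher and Wnt3a (-3.33), Wnt7b (-2.25) and Wnt9a (-1.27) lower. The receptors Fzd4 (1.80), Fzd1 (1.68) and Fzd2 (1.57) were higher and Fzd10 (-1.39) lower. The Notch pathway holds neural progenitors back from differentiating. Of its 18 genes 8 were lower and 2 higher, against 23.7% and 27.8% of all genes. The higher count was 1 without M9 replicate 1, M9 replicate 3, B9 replicate 2 or B9 replicate 3. The Notch ligand Dll1 was at 502, 308 and 491 in M9 and at 1568, 1549 and 1730 in B9 (log2 change -1.93, SE 0.48, adjusted p = 0.0016). The receptor Notch1 was at 1564, 1063 and 1252 in M9 and at 4233, 3099 and 4118 in B9 (log2 change -1.56, SE 0.29, adjusted p = 5.8e-05). R9 was above B9 in both, with a mean of 3872 for Dll1 and 5163 for Notch1. Of 25 FGF genes 4 were higher (2 without M9 replicate 2) and 7 lower, against 27.8% and 23.7% of all genes. Fgf8, a caudal signal (2.10), and Fgf9 (1.84) were higher, and Fgf7 (-2.58), Fgf1 (-2.54) and Fgf15 (-1.89) lower.

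Caudal progenitor genes were higher in M9 for 7 of 20 and lower for 2, against 27.8% and 23.7% of all genes. When any 1 of the 6 libraries was left out, 5 to 6 were higher and 1 lower. When the compared libraries were fitted alone, 14 were higher. Wnt8a, a ligand of the early tail end, was at 402, 321 and 275 in M9 and at 41.9, 42.2 and 62.2 in B9, with R9 at 96.8, 65.7 and 287 (log2 change 2.75 of M9 over B9, SE 0.78, adjusted p = 0.0043). Hes7, the clock repressor (2.42), and Greb1 (2.01) were also higher. T, which encodes Brachyury, was not called, at 137, 92.2 and 38.5 in M9 and 34.4, 44.6 and 74.4 in B9. Hox genes, which give axial position, were nearly all uncalled. Of groups 1 to 5, 0 of 15 were called by limma, 3 were higher and 0 lower at an unadjusted p under 0.05, and the authors' deposited test had 1 higher. With array weights 10 of the 15 were higher. Of groups 6 to 9, Hoxd9 alone of 12 was called (192 ± 50.3 in M9, 63.4 ± 2.43 in B9, log2 change 1.56, adjusted p = 0.0019). Of groups 10 to 13, Hoxb13 alone of 7 was called, at 44.7, 44.2 and 45.6 in M9 and 10.7, 17.9 and 9.41 in B9. RA pathway genes had 4 higher and 3 lower of 21, against 27.8% and 23.7% of all genes. Cyp26b1, which degrades RA, was among the higher (1.78). Its call was lost without M9 replicate 2 (adjusted p = 0.051), B9 replicate 2 (0.06) or B9 replicate 3 (0.077), and the higher count was 2 without M9 replicate 2, B9 replicate 2 or B9 replicate 3.

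Pluripotency genes were lower in M9 for 21 of 24 and higher for 0 (median -2.29), against 23.7% and 27.8% of all genes. These counts were also 21 and 0 at an unadjusted p under 0.05 and by the authors' deposited test. Pou5f1, which encodes Oct4 (chromosome 17, 35506018 to 35510772, plus strand), was at 405, 236 and 474 in M9 and at 1014, 2325 and 3279 in B9 (log2 change -2.47, SE 0.71, adjusted p = 0.005). Nanog was at 123, 64.1 and 210 in M9 and at 721, 1138 and 1604 in B9 (log2 change -3.20, SE 0.74, adjusted p = 0.00077). Esrrb (-3.26), Tdgf1 (-3.22), Prdm14 (-2.96) and Zfp42 (-2.84) had changes of like size. No M9 library of Pou5f1 or Nanog reached the lowest B9 library. Summed over the 24 genes, levels were 10142 to 11454 in M9, 19830 to 30543 in B9 and 24520 to 40043 in R9. B9 replicate 1 was the lowest B9 library in both genes, and the count of lower genes was 15 to 21 when any 1 library was left out. In undifferentiated mESCs the means were 9359 for Pou5f1 and 6973 for Nanog, but these rest on 1 library, since the levels were 3064, 2678 and 22340 for Pou5f1 and 1939, 1505 and 17470 for Nanog. Every M9 library was below every library of the starting cells in both genes, whereas B9 overlapped them. The share of undifferentiated cells in each culture was not measured, and its part in the neural differences was not tested. Sox2 and Foxd3 belong to both the neural and the pluripotent programme.

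Cell cycle genes were higher in M9 for 19 of 22 and lower for 0 (median 0.61), against 27.8% and 23.7% of all genes. These counts were 20 and 0 at an unadjusted p under 0.05, and 18 and 0 by the authors' deposited test. The changes were small beside those of lineage genes. Cdk1, the mitotic kinase, was at 3246, 3212 and 3093 in M9 and at 2191, 2277 and 2207 in B9 (log2 change 0.52, SE 0.13, adjusted p = 0.0018). Ccnd2, cyclin D2, was at 15960, 22840 and 16700 in M9 and at 9280, 5226 and 4928 in B9 (log2 change 1.56, SE 0.34, adjusted p = 0.0004). Ccne2, cyclin E2 (1.18), and Tyms, thymidylate synthase (1.11), also exceeded 2-fold, and the replication helicase genes Mcm3 to Mcm7 were higher by 0.55 to 0.84. Ranges did not overlap in Cdk1 or Ccnd2. R9 levels of Cdk1 (mean 2280) were close to B9 and those of Ccnd2 (mean 12800) lay between the groups.

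Among genes whose ranges did not overlap, the largest decrease was in an immediate early gene. Of 15 immediate early genes 8 were lower in M9 and 0 higher (median -1.23), against 23.7% and 27.8% of all genes. At an unadjusted p under 0.05 the limma test gave 9 and 0, and so did the authors' deposited test. Immediate early genes are transcribed within minutes of a growth factor, depolarisation or handling stimulus, without new protein synthesis. Fos, a subunit of the AP-1 factor (chromosome 12, 85473890 to 85477273, plus strand), was at 39.2, 54.1 and 75.0 in M9 and at 1704, 1448 and 1816 in B9 (log2 change -4.90, SE 0.65, adjusted p = 5.2e-07). Egr1, a zinc-finger factor, was at 298, 339 and 674 in M9 and at 6645, 7653 and 11520 in B9 (log2 change -4.35, SE 0.72, adjusted p = 1.4e-05). Fosb was at 5.82, 6.54 and 9.06 in M9 and at 89.2, 185 and 156 in B9 (log2 change -4.11, SE 0.69, adjusted p = 2e-05). Junb, another AP-1 subunit, was at 202, 231 and 268 in M9 and at 1723, 1746 and 2471 in B9 (log2 change -3.07, SE 0.40, adjusted p = 4.5e-07). In each of these genes every B9 library was above every M9 library. The RA-only cultures overlapped B9 in Fos, at 2531, 1496 and 895, and lay above M9 and below B9 in Egr1, at 5477, 2508 and 2673. Ier2 (-1.31), Arc (-1.29), Dusp1 (-1.18) and Nr4a1 (-0.90) completed the 8. The other genes among the 15 largest decreases were neural genes named above, with Tcl1 (-3.88), a gene of pluripotent cells, AI854517 (-3.86) and Kirrel2 (-3.83), an adhesion protein of neural progenitors. The labels give no harvest times or order, so the part of handling in these differences was not tested.

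Promoters of immediate early genes are known to bind CREB and ATF factors at cAMP response elements, whose core reads TGACG or, on the other strand, CGTCA. RefSeq promoter windows (GRCm38.p6) are given for 5 of the 8 genes, since these genes were lower together in M9. The 250 bases before each start are printed 5′ to 3′ on the gene's strand, with every core in capitals. Windows of the other lower genes were left out here, so the 5 are not the full set. They lie at chr12:85473640-85473889 (plus strand) for Fos, chr7:19310046-19310295 (minus) for Fosb, chr8:84978749-84978998 (minus) for Junb, chr17:26508473-26508722 (minus) for Dusp1 and chr15:101266596-101266845 (plus) for Nr4a1.
Fos: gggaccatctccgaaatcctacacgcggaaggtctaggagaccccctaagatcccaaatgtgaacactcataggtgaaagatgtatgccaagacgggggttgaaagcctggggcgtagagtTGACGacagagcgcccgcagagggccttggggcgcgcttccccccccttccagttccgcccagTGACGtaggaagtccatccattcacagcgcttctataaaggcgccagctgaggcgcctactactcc
Fosb: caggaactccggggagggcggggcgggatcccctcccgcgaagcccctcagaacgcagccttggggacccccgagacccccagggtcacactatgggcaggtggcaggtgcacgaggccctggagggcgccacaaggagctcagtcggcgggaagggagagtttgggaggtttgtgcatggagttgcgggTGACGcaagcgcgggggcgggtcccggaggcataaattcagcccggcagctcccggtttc
Junb: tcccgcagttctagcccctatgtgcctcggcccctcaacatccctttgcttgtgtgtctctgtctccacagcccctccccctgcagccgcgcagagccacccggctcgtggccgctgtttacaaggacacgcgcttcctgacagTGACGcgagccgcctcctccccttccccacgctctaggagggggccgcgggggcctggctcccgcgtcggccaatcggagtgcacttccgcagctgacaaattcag
Dusp1: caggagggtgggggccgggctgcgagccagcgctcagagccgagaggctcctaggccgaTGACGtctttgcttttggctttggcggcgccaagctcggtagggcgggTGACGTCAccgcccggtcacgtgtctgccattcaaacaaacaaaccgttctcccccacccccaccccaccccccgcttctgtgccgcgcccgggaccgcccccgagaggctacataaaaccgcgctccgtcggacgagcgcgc
Nr4a1: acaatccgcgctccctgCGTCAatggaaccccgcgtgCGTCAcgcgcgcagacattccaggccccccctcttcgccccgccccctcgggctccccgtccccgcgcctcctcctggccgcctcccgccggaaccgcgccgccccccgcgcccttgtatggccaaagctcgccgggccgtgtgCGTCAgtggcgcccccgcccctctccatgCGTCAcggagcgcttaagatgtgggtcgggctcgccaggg
Each of the 5 printed windows held a core, from 1 in Fosb and Junb to 4 in Nr4a1. A core was also present in 9 of the 14 windows of listed immediate early genes and in 17.8% of all 32851 windows of this length. Because the 5 are only part of the 8 lower genes, their share cannot be set against these as that of the lower genes. In Fos the nearer match began 66 bases before the start, and in Dusp1 2 cores overlap as the full palindrome. A match describes these letters and not the binding of a factor.

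**Figure D4:**
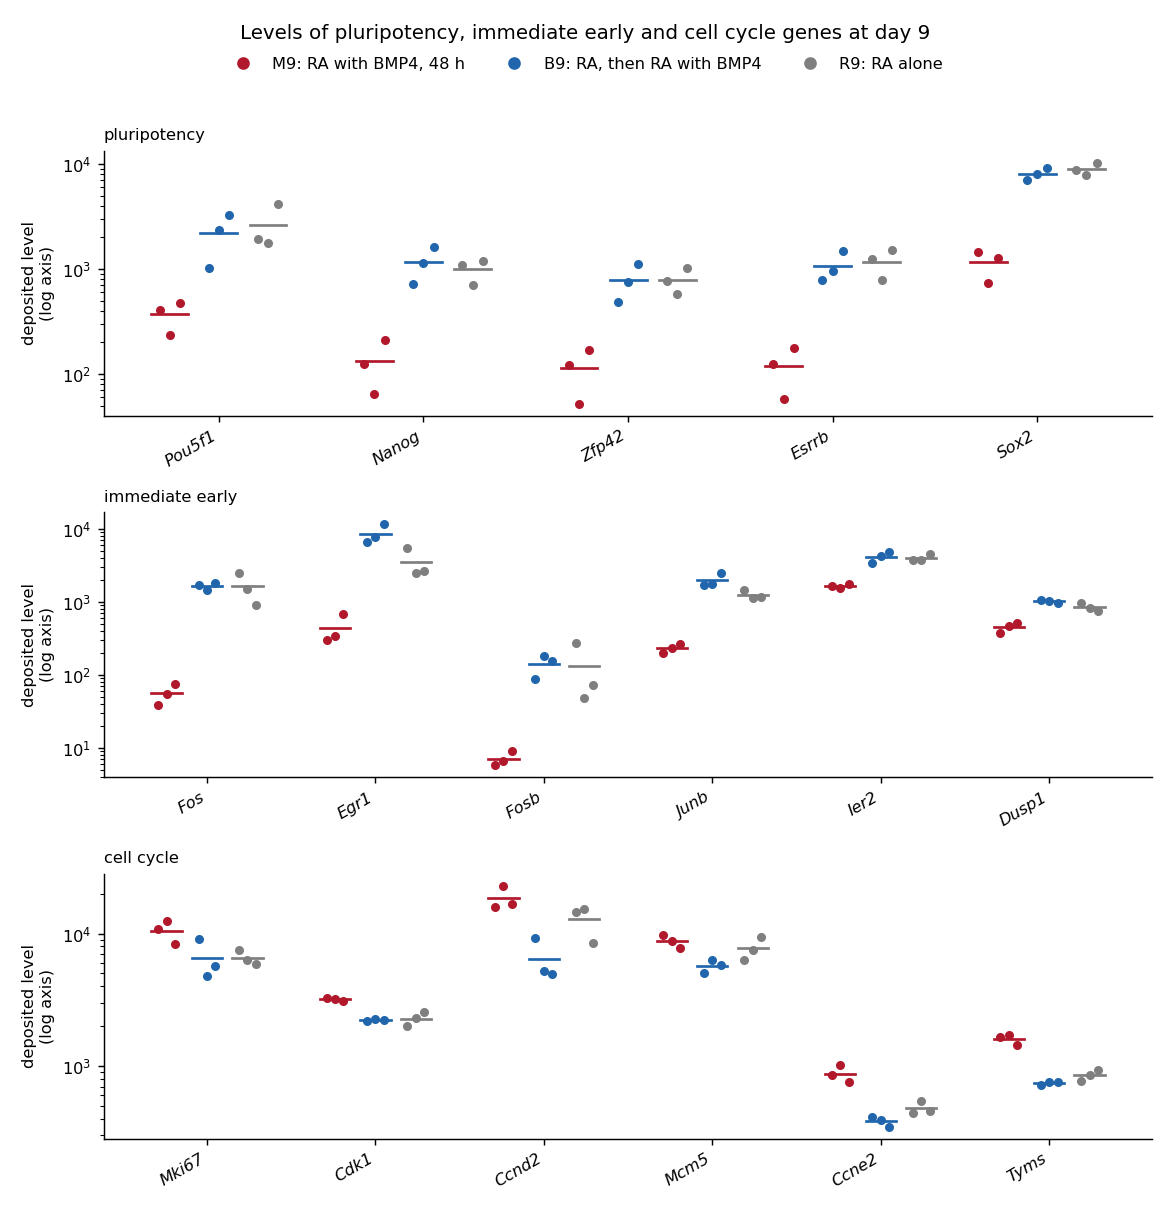
Deposited level of pluripotency, immediate early and cell cycle genes on a log axis, with 1 point per library and a line at the group mean, for M9 (red), B9 (blue) and R9 (grey). Fos is at 39.2 to 75.0 in M9, 1448 to 1816 in B9 and 895 to 2531 in R9, and Cdk1 at 3093 to 3246 in M9 and 2191 to 2277 in B9.

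Placed against RA alone, B9 was the group that stayed nearer to it. The R9 mean was nearer to B9 than to M9 for 80.6% of the genes higher in M9 and for 83.3% of those lower. R9 lay between the groups for 56.7% of the higher and 57.8% of the lower genes, and was below both for 39.7% of the higher and above both for 39.4% of the lower. Hand2 and Gata6 were higher in M9 and had R9 means of 19.7 and 204, below B9. Pax6 and Lbx1 were lower in M9 and had R9 means of 947 and 251, above B9.

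The same contrast had been measured on days 5 and 7, which allows the day 9 result to be set beside its earlier course. On day 7, 4673 genes were called in M7 against B7 (41.6%), 2437 higher (21.7%) and 2236 lower (19.9%). Of the genes higher in M9, 1678 were also higher in M7 (53.9% of the day 9 genes and 68.9% of the day 7 genes), and 38 were called in the opposite direction. Of the genes lower in M9, 1428 were also lower in M7 (53.6% and 63.9%), and 24 were opposite. On day 5, right after treatment, 1997 genes were called (17.8%), 961 higher (8.57%) and 1036 lower (9.23%). Of the genes higher in M9, 371 were already higher in M5 (11.9% and 38.6%) and 128 were lower there. Among the genes lower in M9, 441 were lower in M5 (16.6% and 42.6%) and 95 were higher. Sox2 changed by -2.21 on day 5, -3.11 on day 7 and -2.85 on day 9. Tubb3 changed by -2.18 (adjusted p = 0.071) on day 5, -4.84 on day 7 and -3.70 on day 9, and its means in the B series were 1252, 24500 and 5461, so that its level in B peaked on day 7. Tbx20 changed by 3.35, 4.39 and 5.08. Hand1 was at means of 5715, 1086 and 433 in the M series, and of 1039, 16.4 and 22.3 in the B series, over the same 3 days.

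Whether the change on day 9 differed from that on day 7 was tested directly. In the same fit, the day 9 change minus the day 7 change was called for 434 genes (3.87%), 283 above 0 (2.52%) and 151 below 0 (1.35%). With array weights the total was 3141. Immediate early genes had 6 of 15 members called, all below 0. Fos averaged 53.9 ± 14.2 in M7 and 76.7 ± 14.02 in B7, a change of -0.52 (adjusted p = 0.55), and the difference of the 2 days' changes was -4.38 (SE 0.91, adjusted p = 0.0051). Egr1 averaged 297 ± 30.5 in M7 and 501 ± 166 in B7, and its difference was -3.65 (SE 1.01, adjusted p = 0.036). Junb (-2.83, adjusted p = 0.0038), Fosb (-3.51, 0.037), Ier2 (-1.59, 5.2e-05) and Dusp1 (-0.91, 0.043) were the others. In M the means of Fos were 80.4, 53.9 and 56.1 on days 5, 7 and 9, and in B they were 102, 76.7 and 1656. The B mean thus moved and the M mean stayed near its earlier level. RA-only means also rose, for Fos from 117 in R7 to 1641 in R9 and for Egr1 from 361 to 3553. Over the 15 listed genes, geometric mean levels in M, B and R were 151.2, 169.6 and 123.5 on day 7. On day 9 they were 146, 441.1 and 293. The rise in RA-only cultures was not tested. The total of 434 was 180, 219, 248 and 190 without M9 replicate 1, M9 replicate 2, B9 replicate 2 and B9 replicate 3, in that order, and 256, 282, 207 and 284 without M7 replicate 2, B7 replicate 1, B7 replicate 2 and B7 replicate 3.

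Cell cycle genes differed between days in the other direction, with 7 of 22 called, all above 0, against 2.52% above 0 over all genes. On day 7, 2 were higher and 3 lower, with a median of 0.04. Top2a averaged 16210 ± 1600 in M7 and 22560 ± 1604 in B7 (log2 change -0.48, adjusted p = 0.0029), against 16260 ± 1752 in M9 and 13220 ± 2295 in B9 (log2 change 0.31, adjusted p = 0.041), and the difference of 0.79 was called (SE 0.18, adjusted p = 0.0099). Pluripotency genes had a median of -0.64 on day 7 with 1 lower of 24, beside wide SDs (Pou5f1 942 ± 892 in M7 and 1241 ± 698 in B7). The difference between the days of Pou5f1 was not called, at -1.87 (SE 1.01, adjusted p = 0.32), and a p that misses the threshold does not show that the days were alike. The pan-neuronal list had a median of -3.20 on day 7 and -2.20 on day 9.

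**Figure D5:**
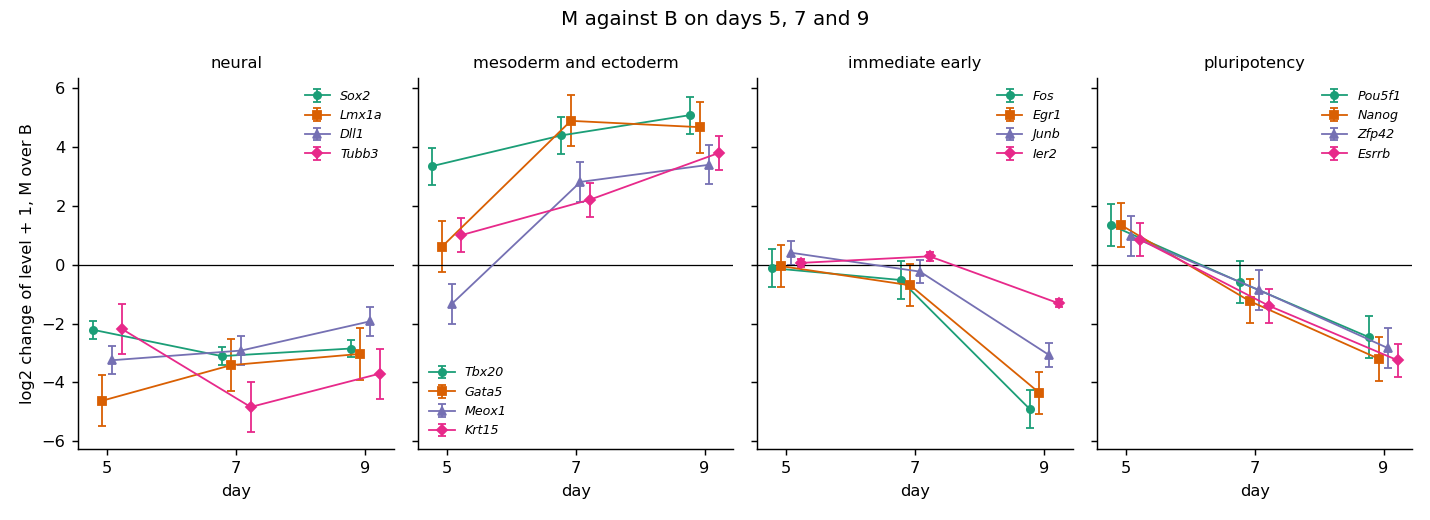
Log2 change of level + 1 in M over B on days 5, 7 and 9 for 4 genes in each of 4 groups, with SE bars from the limma fit. Fos is at -0.52 on day 7 and -4.90 on day 9, while Sox2 is at -2.21, -3.11 and -2.85 and Tbx20 at 3.35, 4.39 and 5.08 on days 5, 7 and 9.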

How the data were processed

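Bulk RNA-seq libraries of 45 mESC-derived cultures were deposited as 1 table of 11220 genes. Its levels are a normalised signal made by the authors, with no unit stated. The aligner and the counter were not given in the sources used here, whereas Picard, edgeR and the mm10 build are named in the submitters' processing notes. The deposited columns headed as FPKM and the rank column are a score and were not used as expression. The authors' deposited log2 fold changes, B9 over M9, were turned in sign, and their deposited p-values and false discovery rates served as an alternative test. The table lists genes with a deposited rate under 0.1 in any comparison. Replicate libraries came from separate differentiations per the series' text, but p-values measure only the spread between these samples.

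Levels were taken as log2(level + 1) and fitted with limma 3.58.1 (trend, robust) in R 4.3.3, with 15 groups of 3 libraries and no covariates. Benjamini-Hochberg adjustment ran over the 11220 genes. The fit was tested on simulated data, where it recovered 65% of 2-fold and 91% of 4-fold changes of M9 against B9, with 10 false calls. The simulation changed only a small share of the 11220 genes and drew independent noise, whereas 51.5% were called in the data. These rates therefore need not hold for the real contrast. Read depth per library is unknown, so no counting interval is given. Of the gene IDs, 10766 matched GENCODE M21 for coordinates, and of 22 symbols turned into dates 19 were restored. Genes were named by a rule, namely the 15 largest changes in each direction with ranges that do not overlap and a mean of at least 20, and the 3 smallest adjusted p per list and direction. Cell type markers and other list members were named beyond it after their values were seen, and a few members of the lists are not reported here by name. The comparison and the gene lists were chosen with earlier results of these data known. Alternatives were another pseudocount (0.1 or 5), a mean level of at least 50, quantile normalisation, array weights, the compared libraries alone, a replicate block, adjustment over 16014 genes, thresholds of 0.01 and 0.1, and leaving out each library.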

Additional observations from a re-analysis of the deposited data

Results flagged for a closer look

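In 10 genes the change of M over B differed between days by a test of the difference itself (limma, adjusted p under 0.05), and these were the 5 largest in each direction. Values are the day 9 change minus the day 7 change on the log2 scale.

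The differences above 0 came from genes that were lower in M7 than in B7 and were not called lower in M9. Scn7a, a sodium channel gene (3.80, adjusted p = 0.0018), averaged 5.16 ± 3.38 in M7 and 28.6 ± 5.66 in B7, against 14.1 ± 7.97 in M9 and 4.51 ± 1.63 in B9. Scn9a, another sodium channel gene of sensory neurons (2.78, adjusted p = 0.0021), averaged 54.0 ± 37.2 in M7 and 335.5 ± 23.8 in B7, against 69.2 ± 21.2 in M9 and 69.1 ± 9.43 in B9. Pou4f3, a POU factor of sensory neurons (2.82, adjusted p = 0.0091), averaged 4.46 ± 2.49 in M7 and 59.4 ± 24.5 in B7. Isl2, a LIM factor of motor and sensory neurons (3.18, adjusted p = 0.023), averaged 44.1 ± 35.0 in M7 and 258 ± 49.5 in B7. Gm16551 (3.02, adjusted p = 0.031) averaged 22.1 ± 15.2 in M7 and 289.6 ± 38.8 in B7. Of 12 fits that each left out 1 library, Isl2 lost its call in 5 (highest adjusted p 0.073) and Gm16551 in 8 (0.079).

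The differences below 0 held embryonic globins. Hba-x (-5.43, adjusted p = 0.015) averaged 676 ± 786 in M7 and 8.53 ± 4.52 in B7, and Hbb-y (-4.23, adjusted p = 0.042) averaged 260 ± 271 in M7 and 8.04 ± 6.40 in B7. Of 12 fits that each left out 1 library, Hbb-y lost its call in 9 (highest adjusted p 0.15) and Hba-x in 2 (0.062). Hbb-y also lost it with quantile normalisation (adjusted p = 0.052) and with the compared libraries alone (0.17). Myl4, an atrial myosin light chain (-4.06, adjusted p = 0.0032), averaged 231 ± 19.2 in M7 and 38.2 ± 10.8 in B7, against 22.3 ± 13.6 in M9 and 60.6 ± 26.4 in B9. Mab21l2 (-4.54, adjusted p = 0.019) averaged 291 ± 152 in M7 and 36.4 ± 25.2 in B7, against 124 ± 61.9 in M9 and 373 ± 233 in B9, and it lost its call in 4 of the 12 fits (highest adjusted p 0.061). Fos (-4.38, adjusted p = 0.0051) averaged 53.9 ± 14.2 in M7 and 76.7 ± 14.02 in B7, against 56.1 ± 17.96 in M9 and 1656 ± 188 in B9.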

How the results depend on the processing

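The count of 5777 genes called in M9 against B9 was 4395 to 5400 when any 1 library was left out, and 4044 to 7619 over all alternatives. Of 4111 gene values under alternatives, 164 lost the call, 7 gained it and 0 of those called in the main fit changed sign. The other 3940 were counted as the same. Among these, a change of sign in a gene not called in the main fit was not counted. At an adjusted p under 0.01, 1736 genes were lower. The count of differences between days moved more. It was 3141 with array weights (1763 above and 1378 below 0), 119 at a threshold of 0.01 (83 and 36) and 786 at 0.1 (503 and 283). Leaving out 1 library gave 180 to 473 in all, 118 to 316 above and 62 to 157 below 0. The cause was not tested. The deviations of M9 and B9 libraries with the same replicate number correlated at -0.348, -0.153 and 0.0864. Since each group holds only 3 libraries, these correlations cannot decide whether equal numbers mark paired samples. With the replicate block 5711 genes were called, and 4667 with the block in the compared libraries alone; the differences between days numbered 379 and 516. Depth is unknown, which limits what can be said of genes at low levels.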

Other observations

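Sensory neuron genes, not described above, were mixed at day 9. Of 17, 5 were lower in M9 and 3 higher, against 23.7% lower and 27.8% higher over all genes. The lower count was 3 without M9 replicate 1, M9 replicate 2 or B9 replicate 1. Neurod1, a neuronal differentiation factor (-3.32), Ntrk2, a neurotrophin receptor (-1.95), and P2rx3 (-1.47) were among the lower, and Ret (1.99), Runx3 (1.23) and Six4 (0.71) were higher. Among p53 target genes 4 of 14 were higher and 2 lower, against 27.8% and 23.7% of all genes. Only 1 was lower without M9 replicate 2, M9 replicate 3, B9 replicate 2 or B9 replicate 3. Fas, a death receptor gene of this list, changed by 1.01. Among hypoxia response genes 1 of 15 was higher and 2 lower, against 27.8% and 23.7% of all genes. The higher count was 0 without M9 replicate 1, M9 replicate 3 or any B9 library, and by the authors' deposited test. The lower count was 1 without M9 replicate 2.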
